A study of Drosophila melanogaster with 6 samples.

Results

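The genes described here encode rib (ribbon) and lolal (lola-like), a BTB protein that binds rib, together with 8 related BTB transcription factors: lola, ttk, Trl, mod(mdg4), psq, ab, bab1 and bab2. Members were the probe sets whose platform annotation gave exactly 1 gene symbol and in which that symbol was one of these 10. The rule found 43 of 18769 probe sets and 8 of the 10 genes: 22 probe sets for mod(mdg4), 15 for lola and 1 each for rib, lolal, Trl, psq, bab1 and bab2. No probe set carried the symbol ttk or ab alone, so these genes were not analysed here. A further 3 probe sets of mod(mdg4), 2 of Trl and 1 of lola carried several symbols and were left out.

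Whole Drosophila melanogaster embryos of the wild-type strain Oregon R were compared with embryos that carried the rib alleles rib1 and ribP7 over one another. Each group had 3 Affymetrix Drosophila Genome 2.0 arrays from independent collections, labelled as stages 11 to 16, with embryos laid over 8 h, aged for 11 h and picked with an embryo sorter. The wild type was the Oregon R strain and not embryos of the mutant cross, so the rib genotype and the strain background cannot be told apart, and no label states the effect of either allele on rib RNA. Values are log2 expression normalized with RMA, and in whole embryos fewer cells of a type and less RNA per cell cannot be told apart.

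The BTB domain is a protein interaction fold with which these nuclear proteins pair with themselves and with one another. Most members join it to a DNA-binding region: zinc fingers in lola, ttk, Trl and ab, and a helix-turn-helix of the pipsqueak type in psq, rib, bab1 and bab2. Lolal holds little besides its BTB domain and is known to bind the GAGA factor, the product of Trl. In the embryo, rib is known for shaping the salivary glands and the trachea, lola for guiding axons, and the GAGA factor and psq for binding GAGA repeats in chromatin.

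Wild-type replicate 3 stood apart from the other arrays, being the highest of the 6 at 46.4% of all probe sets and the lowest at 18.5%. The hybridization controls averaged 10.38 to 10.78 log2 units in wild type and 10.13 to 10.28 in the mutants. Spread was wider among the wild-type arrays for 33 of the 43 members and for 80.8% of all probe sets. All array medians lay between 5.51 and 5.56 log2 units. The deposited values hold no detection calls, and the small number of arrays limits the precision.

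Among the 43 member probe sets, 7 rose and 3 fell in the mutants at a limma adjusted p under 0.05, and these 10 make up 23.3% against 8.87% of all probe sets called. The rises were in bab1, rib and 5 probe sets of lola, and the falls were all in mod(mdg4). The groups did not overlap at 27 members, or 62.8%, against 35.3% of all probe sets. The median difference over the members was 0.15 log2 units, against −0.07 over all probe sets. Probe sets of 1 gene share their source, and mod(mdg4) and lola supply 37 of the 43, so these shares largely describe a pair of genes. With the replicate number as a block 18 members were called, against 14.6% of all probe sets. Leaving out wild-type replicates 1, 2 and 3 in turn gave 15, 3 and 10 member calls. Over all 18769 probe sets these fits called 3674, 891 and 1695 (9.03% in the last). Leaving out mutant replicates 1, 2 and 3 gave 2, 1 and 2 member calls, beside 621, 603 and 607 over all probe sets. The member counts thus rose and fell with those of all probe sets. Only the bab1 probe set was called in every one of these 6 fits.

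The single rib probe set, 1631066_at, measured 13.21, 13.28 and 12.69 log2 units in wild-type replicates 1, 2 and 3, and 13.87, 13.93 and 13.78 in the mutant replicates. All mutant values stood above all wild-type values, and wild-type replicate 3 was the lowest. The difference was 0.80 (SE 0.17, 95% interval 0.39 to 1.21), with limma adjusted p = 0.0390. Without wild-type replicate 3 it was 0.62 (limma adjusted p = 0.0141). The rib call was lost without wild-type replicate 2 (limma adjusted p = 0.0588), without mutant replicates 1, 2 and 3 (0.1395, 0.155 and 0.117) and with cyclic loess (0.0559). It was also lost in a plain test without moderated variance (adjusted p = 0.133).

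For lolal, probe set 1640311_s_at measured 11.48, 11.58 and 11.36 log2 units in wild type and 11.76, 12.01 and 11.77 in the mutants. The groups did not overlap, and the highest value was in mutant replicate 2. The difference of 0.37 log2 units (SE 0.11, 95% interval 0.12 to 0.63) missed the threshold, with limma adjusted p = 0.0850. The rib and lolal profiles over the arrays had the same lowest array, wild-type replicate 3, and the same highest array, mutant replicate 2. Scaled on the hybridization controls, the lolal difference was 0.75 and passed (limma adjusted p = 0.0381), in a scaling that moved the median of all probe sets from −0.07 to 0.31.

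Genes with the profile most like that of rib over the 6 arrays, out of 13604 other probe sets with 1 symbol, were Marf, a mitochondrial fusion GTPase gene, Nt5b and Snx27, a sorting nexin gene. Their values, each centred on its mean, lay within a root mean square distance of 0.050, 0.053 and 0.057 log2 units of rib. The differences between groups were 0.71 for Marf, 0.77 for Nt5b and 0.84 for Snx27. Around lolal the nearest were Rgl, vap, a Ras GTPase-activating protein gene, and CG11807, at distances of 0.027, 0.035 and 0.043. All these profiles share the step between the groups and the low value in wild-type replicate 3. Without wild-type replicate 3 or wild-type replicate 1, 1 of the 3 genes nearest to rib stayed among its 10 nearest.

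**Figure D1:**
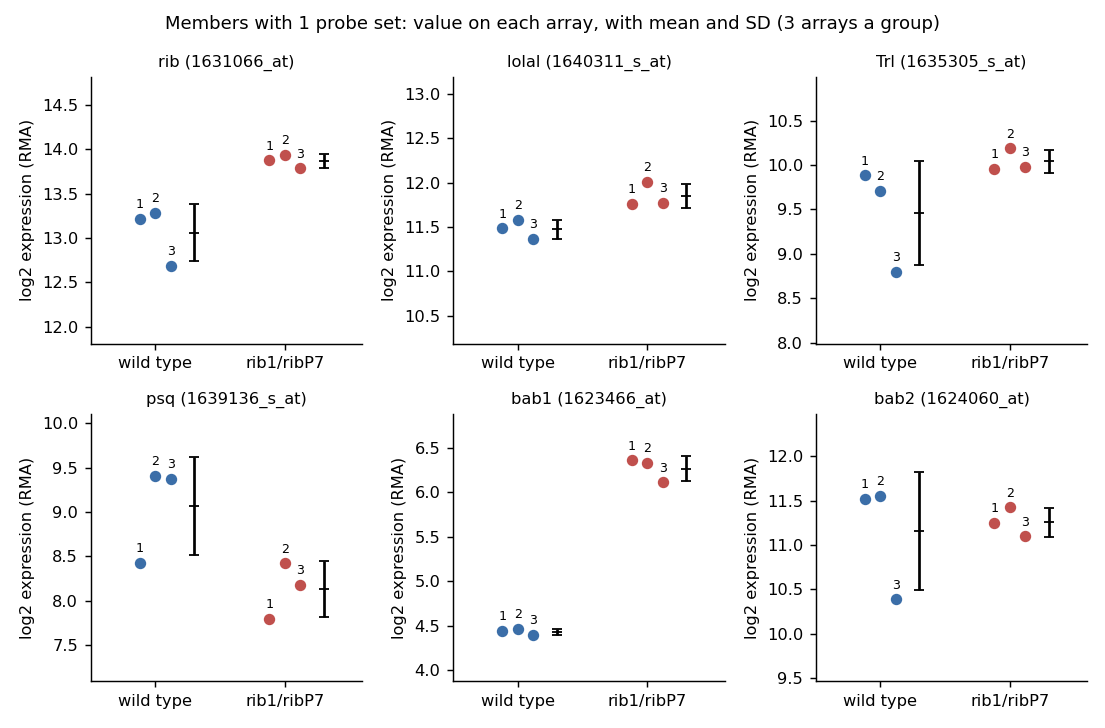
Log2 expression (y axis, a span of 3 units in every panel) of the members with 1 probe set, in wild-type (blue) and rib1/ribP7 (red) embryos. Points are arrays labelled with their replicate number, and black bars give the mean and SD of 3 arrays; bab1 has the groups farthest apart, while the bab2 groups overlap.

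The GAGA-binding pair gave opposite signs, and neither passed the test. Trl probe set 1635305_s_at measured 9.88, 9.71 and 8.79 log2 units in wild type and 9.96, 10.19 and 9.98 in the mutants. Wild-type replicate 3 lay far below the other wild-type arrays, and the groups did not overlap. The Trl difference was 0.58 (SE 0.29, 95% interval −0.12 to 1.27, limma adjusted p = 0.266), and without wild-type replicate 3 it was 0.24 (limma adjusted p = 0.266).

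Psq probe set 1639136_s_at measured 8.43, 9.40 and 9.38 log2 units in wild type and 7.79, 8.42 and 8.18 in the mutants. The groups barely failed to overlap: wild-type replicate 1 stood just above mutant replicate 2. The difference was −0.94 (SE 0.30, 95% interval −1.68 to −0.20), with limma adjusted p = 0.119. Blocking on the replicate number brought the limma adjusted p to 0.0178, and without wild-type replicate 1 the difference was −1.26 (limma adjusted p = 0.00967). Affymetrix gives the ending _s_at to probe sets whose probes match several transcripts, so the lolal, Trl and psq values may each combine more than 1.

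Lola was higher in the mutants at all 15 of its probe sets, of which 5 passed the test and none fell, or 33.3% against 5.54% of all probe sets called higher. The gene is known for making many proteins from shared first exons, which encode the BTB domain, and alternative last exons with different zinc fingers. The files do not say which transcripts each probe set reads. The median difference was 0.73 log2 units, with a range from 0.04 to 1.70, and the groups did not overlap at 12 of the 15, against 14.2% of all probe sets not overlapping in the higher direction.

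Probe set 1628421_at had the largest difference in lola, with 6.72, 6.51 and 5.42 log2 units in wild type and 7.79, 8.38 and 7.59 in the mutants. The mutants exceeded wild type by 1.70 log2 units (SE 0.38), 3.26-fold on a linear scale (limma adjusted p = 0.0477). At 1641609_at the wild-type arrays gave 9.75, 9.67 and 8.67 and the mutant arrays 10.83, 10.85 and 10.58, a difference of 1.39 (SE 0.30, limma adjusted p = 0.0407). In both, every mutant array lay above every wild-type array and wild-type replicate 3 was the lowest of its group by about 1 unit. The mutant arrays lay close together at 1641609_at and were more spread at 1628421_at, where mutant replicate 2 was the highest.

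At 1627324_at the low array was another one: wild type measured 7.17, 8.09 and 7.83 log2 units, with replicate 1 the lowest, and the mutants 8.80, 9.27 and 8.77. Its difference was 1.25 (SE 0.26, limma adjusted p = 0.0394). The lola rise with the lowest p was at 1633089_a_at, with 5.61, 5.69 and 5.48 in wild type and 6.63, 6.56 and 6.27 in the mutants. All 3 wild-type arrays lay near the array median, a range in which probe sets may hold mostly background. This 1.85-fold rise was 0.89 log2 units (SE 0.12, limma adjusted p = 0.00955), and it was called in 5 of the 6 fits that left out an array, but not without mutant replicate 2 (limma adjusted p = 0.0560).

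The smallest called rise was 0.32 (SE 0.07) at 1630936_at, from 7.33, 7.45 and 7.42 log2 units to 7.76, 7.71 and 7.70, with limma adjusted p = 0.0493. That call was lost with the replicate block (limma adjusted p = 0.0740) and in each fit that left out an array. The lola probe set with the least difference, 1625768_s_at, measured 11.67, 12.19 and 12.20 in wild type and 11.81, 12.26 and 12.11 in the mutants. Here the groups overlapped, and the difference was 0.04 with a 95% interval of −0.42 to 0.50. The other uncalled probe sets of lola had differences from 0.26 at 1623411_at to 1.40 at 1628946_at (SE 0.44, limma adjusted p = 0.112, and 0.0248 with the replicate block).

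The number of lola calls depended on the fit. Under the replicate block 10 of the 15 probe sets rose, with 1628946_at, 1640945_at, 1629523_at, 1640280_at, 1633422_a_at and 1634495_s_at added and 1630936_at lost. That block fit called 2745 of all 18769 probe sets (14.6%) in either direction. Scaled on the hybridization controls, 9 lola probe sets rose, in a fit that called 3202 of all 18769 probe sets in either direction. Leaving out wild-type replicates 1, 2 and 3 gave 6, 2 and 5 rises, and leaving out mutant replicates 1, 2 and 3 gave 1, 0 and 1. In the same order, these 6 fits called 3674, 891, 1695, 621, 603 and 607 of all probe sets in either direction. No lola probe set was called lower in any of these fits, and under limma 10 of the 15 had an unadjusted p under 0.05. With cyclic loess the calls at 1628421_at and 1641609_at were lost (limma adjusted p = 0.0549 and 0.0522).

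**Figure D2:**
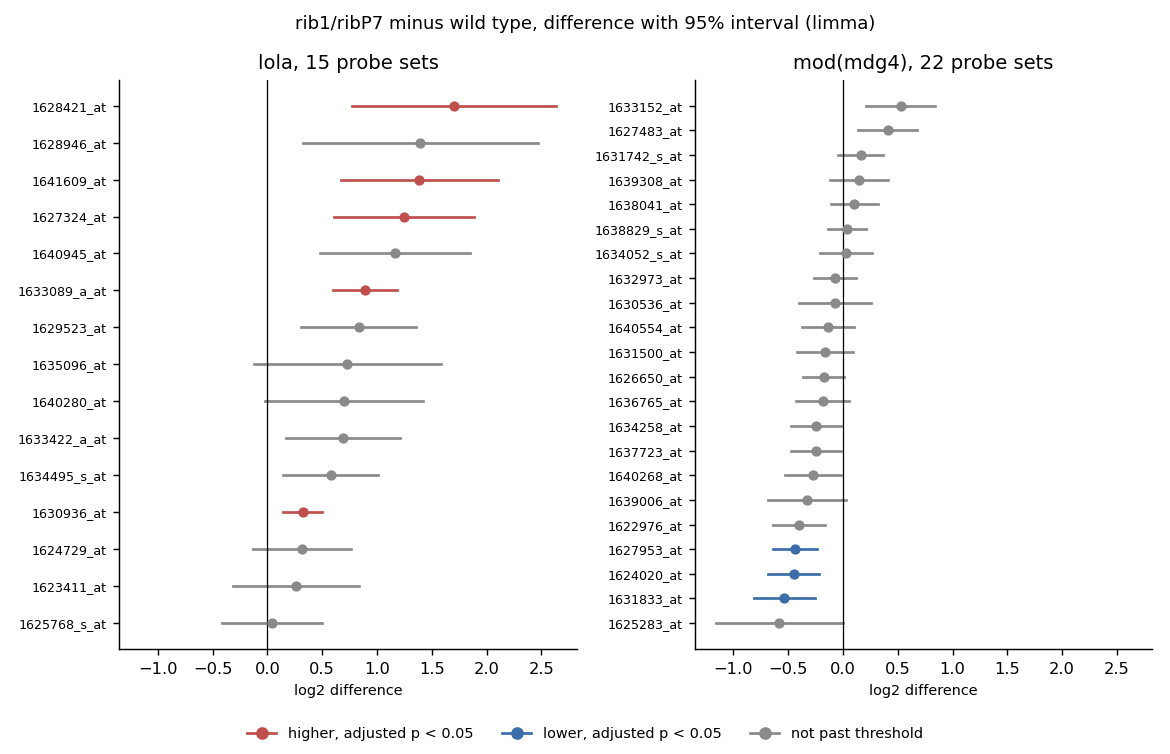
Difference in log2 expression, rib1/ribP7 minus wild type (x axis), with its 95% interval from limma, for each probe set of lola (left) and mod(mdg4) (right). All 15 lola points lie above 0, with 5 called higher (red); mod(mdg4) has points on both sides of 0, with 3 called lower (blue).

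Wild-type replicate 3 had the lowest value at 11 of the 15 lola probe sets, or 73.3%. Relative to each probe set's mean, the lola medians were −0.30, −0.11 and −0.63 log2 units in wild-type replicates 1, 2 and 3, and 0.48, 0.52 and 0.23 in the mutant replicates. Without wild-type replicate 3 the median difference of lola was 0.55 and 5 probe sets rose, against 5.38% of all probe sets in that fit, but not the same 5: 1640945_at and 1629523_at came in at differences of 0.86 and 0.60 (limma adjusted p = 0.0316 and 0.0411), and 1627324_at and 1630936_at went out (0.0691 and 0.0629). Mutant replicate 2 had the highest value at 11 of the 15.

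Markers of neurons moved the same way as lola. Of 16 measured neuronal genes on a list of 18, 12 lay above 0 and 8 rose, none fell, and their median difference was 1.23 log2 units. Over all probe sets 5.54% were called higher. With the replicate block (14.6% of all probe sets called, either way) 11 rose, the 3 added ones being elav, unc-13 and cpx. The mean log2 level over the list ran from 5.63 in wild-type replicate 3 to 6.39 in wild-type replicate 1, and the mutant arrays spanned 7.06 to 7.41. The lowest array, wild-type replicate 3, and the highest, mutant replicate 2, were those of most lola probe sets. This was not particular to neurons. Muscle markers had the same lowest and highest arrays (mean levels 6.46 and 8.95), as did the lists of other BTB transcription factors (7.02 and 8.11) and the trithorax group (9.90 and 10.54). The part of these cells in the lola values was not tested. Over 14 early and maternal genes, 5 fell (8 with the replicate block, adding swa, Sry-delta and CycB3) and none rose. Over all probe sets 3.32% were called lower. The mean level of these genes was 7.75, 8.70 and 8.95 in wild type and 7.18, 7.61 and 7.67 in the mutants.

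**Figure D3:**
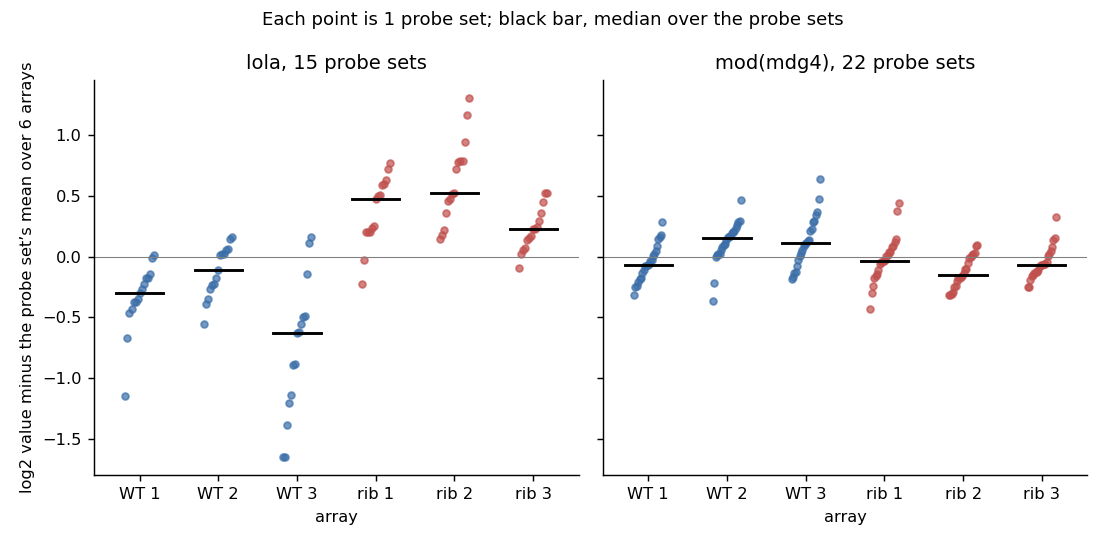
Log2 value of each probe set minus its own mean over the 6 arrays (y axis), by array (x axis; WT is wild type, rib is rib1/ribP7), for lola (left) and mod(mdg4) (right). Points are probe sets and black bars are their medians; the lola medians run from −0.63 in wild-type replicate 3 to 0.52 in mutant replicate 2, and those of mod(mdg4) stay between −0.15 and 0.15.

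To compare probe sets of 1 gene with each other, each probe set was taken relative to the mean of its gene's probe sets on the same array, which cancels any scaling of an array. This test was chosen after the values had been seen, and it ran over 1253 probe sets of 341 genes with at least 3 probe sets, of which 12.6% were called. In lola, 1624729_at fell relative to the gene by 0.50 (SE 0.08, limma adjusted p = 0.0152) and 1634495_s_at fell by 0.24 (SE 0.06, limma adjusted p = 0.0488), and none rose. These 2 of 15, or 13.3%, are near the 12.6% called over all probe sets in that test.

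The relative values of 1624729_at were 0.39, 0.17 and 0.31 log2 units in wild type and −0.13, −0.23 and −0.28 in the mutants, with no overlap. Its own difference from wild type was 0.32 (95% interval −0.13 to 0.77). At the other end, 1628421_at exceeded the gene's mean difference by 0.89 (SE 0.23), with limma adjusted p = 0.0541 and 0.0417 with the replicate block. Under that block 5 lola probe sets were called in all, but not 1634495_s_at (limma adjusted p = 0.0616). Besides 1628421_at, the block added 1641609_at as higher, and 1630936_at and 1625768_s_at as lower (limma adjusted p = 0.0485, 0.0396 and 0.0207). Without mutant replicates 1, 2 or 3 no lola probe set was called in this relative test, and without wild-type replicates 1 and 2 the counts were 5 and 1. The 12.6% over all 1253 probe sets belongs to the fit of all arrays without a block. The lola counts under the block or without an array are therefore not comparable with it.

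Mod(mdg4) went both ways, with smaller differences. The gene is known for a large set of proteins that share a BTB domain and differ at their ends, made in part by trans-splicing, and one of them works with su(Hw) at insulators. Of its 22 probe sets 15 lay below 0 and 7 above, 3 fell and none rose, or 13.6% against 3.32% of all probe sets called lower. When scaled on the hybridization controls, however, 17 lay above 0, 3 rose and none fell. That scaled fit called 3202 of all 18769 probe sets in either direction. The median difference was −0.17 log2 units, with a range from −0.58 to 0.53, and with that scaling the median was 0.21. The groups did not overlap at 8 probe sets in the lower direction, or 36.4% against 21.1% of all probe sets. In the higher direction they did not overlap at 2 of the 22, against 14.2% of all probe sets. That scaling adds the same 0.38 to every probe set, so the signs depend on where 0 is set, and the mod(mdg4) median stood 0.10 below that of all probe sets (a difference of −0.10) under both.

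The 3 falls were at 1631833_at, 1624020_at and 1627953_at. Wild-type arrays gave 9.27, 9.42 and 9.66 log2 units at 1631833_at and mutant arrays 8.88, 8.93 and 8.93, a fall by 0.53 (SE 0.11, limma adjusted p = 0.0402). At 1624020_at the values were 8.22, 8.22 and 8.04 against 7.82, 7.62 and 7.68, a fall by 0.45 (SE 0.10, limma adjusted p = 0.0399). The groups did not overlap at either of these. For 1627953_at, wild-type arrays measured 8.95, 8.98 and 9.07 and mutant arrays 8.64, 8.46 and 8.58, a fall by 0.44 (SE 0.08, limma adjusted p = 0.0293), again with no overlap. With the replicate block 1622976_at was also called, at −0.40 (limma adjusted p = 0.0402, against 0.0587 without it).

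Each of these falls was under 1.5-fold, the size the submitters asked for. With 0.38 added by the scaling on the hybridization controls, the same probe sets differed by −0.16, −0.07 and −0.06, and none was called (limma adjusted p = 0.178, 0.738 and 0.693). Leaving out wild-type replicate 1 gave 6 falls and leaving out wild-type replicate 3 gave 3, beside 3674 and 1695 calls over all probe sets. No mod(mdg4) probe set was called without wild-type replicate 2 or without any 1 of the mutant replicates. Those fits called from 603 to 891 of all probe sets.

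The mod(mdg4) probe sets with the highest differences were 1633152_at and 1627483_at, and neither passed the test on its own. The first measured 6.01, 5.89 and 6.09 log2 units in wild type and 6.70, 6.28 and 6.59 in the mutants, a difference of 0.53 (SE 0.13, limma adjusted p = 0.0609, and 0.0325 with the replicate block). At the second, wild type gave 6.37, 6.47 and 6.61 and the mutants 7.06, 6.77 and 6.83, a difference of 0.41 (SE 0.11, limma adjusted p = 0.0800). In both the mutant arrays all lay above the wild-type arrays.

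Relative to the mean of the gene's probe sets on the same array, 3 probe sets of mod(mdg4) rose and 2 fell, which is 5 of 22, or 22.7%, against 12.6% of the 1253 probe sets in that test. The relative rises were 0.66 at 1633152_at (SE 0.11, limma adjusted p = 0.0202), 0.54 at 1627483_at (SE 0.08, limma adjusted p = 0.0114) and 0.23 at 1638041_at (SE 0.06, limma adjusted p = 0.0470, and 0.0616 with the replicate block). The relative falls were in 1631833_at, by 0.40 (SE 0.09, limma adjusted p = 0.0353), and 1627953_at, by 0.30 (SE 0.06, limma adjusted p = 0.0313). With the replicate block 1625283_at was called lower as well, at −0.45 (limma adjusted p = 0.0419, against 0.176 without it). These differences within an array do not depend on its scaling, and they put 1633152_at and 1627483_at on the opposite side of the gene's mean from 1631833_at and 1627953_at. The relative rises were at dim probe sets, with wild-type values of 5.87 to 6.61 log2 units. The relative falls were at brighter ones (8.95 to 9.66). On its own 1638041_at differed by 0.10 (limma adjusted p = 0.488). The dim 1639006_at (6.01 to 6.52) went the other way in the relative test, at −0.19 (limma adjusted p = 0.274). RMA compresses differences near background, and the part of background in these contrasts was not tested.

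At 1627483_at the relative values were −1.88, −1.94 and −1.81 in wild type and −1.21, −1.39 and −1.40 in the mutants. Leaving out mutant replicate 2 ended the call (limma adjusted p = 0.0524), while the other 5 arrays could each be left out without losing it. The number of mod(mdg4) probe sets called in the relative test was 2 without wild-type replicate 2 and 1 without each mutant replicate. These counts too have no share over all probe sets of the same fits beside them.

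**Figure D4:**
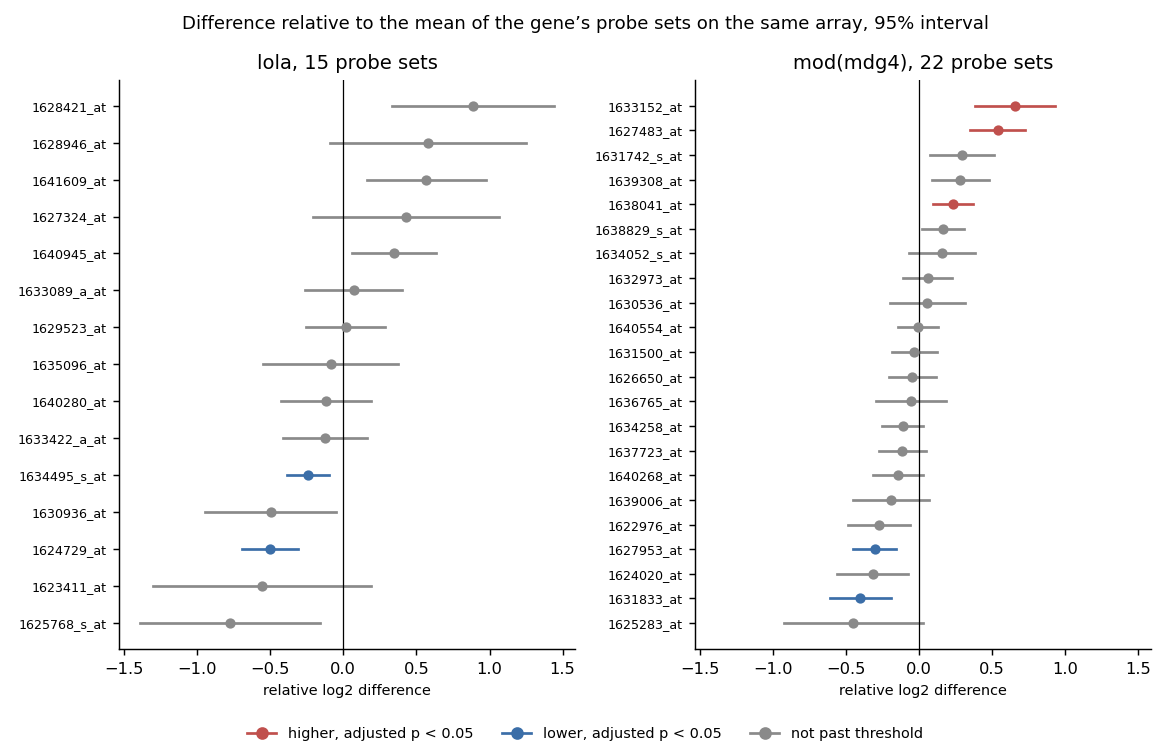
Difference between rib1/ribP7 and wild type of each probe set relative to the mean of its gene's probe sets on the same array (x axis, log2 units), with the 95% interval from limma, for lola (left) and mod(mdg4) (right). In lola 2 probe sets were called lower (blue); in mod(mdg4) 3 were called higher (red) and 2 lower.

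Bab1 had the largest rise among the 43 member probe sets. It is one of a pair of neighbouring genes, bab1 and bab2, with no other gene between them in the RefSeq gene table, and both are known for patterning legs, ovary and abdominal pigment. Probe set 1623466_at measured 4.44, 4.46 and 4.39 log2 units in wild type and 6.36, 6.33 and 6.11 in the mutants. Wild-type arrays lay within 0.1 of one another and below the array median, in the range of background, and all mutant arrays lay above it. The difference was 1.84 log2 units (SE 0.09, 95% interval 1.61 to 2.06), or 3.57-fold, with limma adjusted p = 0.00034. Leaving out each array in turn gave differences from 1.79 to 1.91, with a limma adjusted p of at most 0.00405. Background in wild type may make the fold an understatement.

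Bab2 probe set 1624060_at measured 11.52, 11.55 and 10.39 log2 units in wild type and 11.25, 11.42 and 11.10 in the mutants. The groups overlapped, and wild-type replicate 3 lay more than 1 unit below the others. The difference was 0.10 (SE 0.32, 95% interval −0.69 to 0.89, limma adjusted p = 0.853), and without wild-type replicate 3 it was −0.28 (limma adjusted p = 0.222). Bab1 minus bab2 rose by 1.73 log2 units from wild type to mutant and was higher in all 3 mutant arrays than in all 3 wild-type arrays. An exact two-sided permutation test of that contrast gave p = 0.1, the smallest that 3 against 3 arrays allow. The bab1 values alone already separated the groups, so this test adds nothing about bab2.

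Lola and psq are also close neighbours, with 1 long non-coding RNA gene, acal, between them in the RefSeq gene table. Their differences had opposite signs, above 0 at all 15 lola probe sets and −0.94 at the psq probe set. The psq difference kept its sign under every alternative run, while lola turned below 0 at 1623411_at and 1625768_s_at in some fits, by at most 0.13.

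Other genes were read in 4 lists that share the BTB domain or hold groups in which some of these proteins act. Of 59 measured genes 5 were called, and this 8.47% is near the 8.87% of all probe sets. With the replicate block 14 were called, or 23.7% against 14.6% of all probe sets. Among other BTB transcription factors 15 of 16 were measured, and 2 rose and none fell. Br, an ecdysone-induced factor, went from 6.66, 6.81 and 4.51 log2 units to 8.57, 9.22 and 8.47 at its brightest probe set, a rise of 2.76 (SE 0.63, limma adjusted p = 0.0492). The mutant arrays lay well above wild type, and without wild-type replicate 3 the rise was 2.02 (limma adjusted p = 0.0117). Its other 4 probe sets gave 1.55 (SE 0.15, limma adjusted p = 0.00295), 0.73 (0.0630), 0.07 (0.667) and −0.05 (0.764). CG6765 rose by 1.33 (SE 0.25, limma adjusted p = 0.0289), from 4.96, 4.98 and 4.10, below the array median, to 5.96, 6.17 and 5.89. Over the list the median difference was 0.28 log2 units, 10 of 15 lay above 0, and chinmo, a factor of neuronal timing, differed by 1.76 (SE 0.79, limma adjusted p = 0.224), or by 0.83 without wild-type replicate 3, the array that measured 5.73 against 8.54 and 8.53 in the other wild-type arrays. Lov was called too with the replicate block, at 1.07 (limma adjusted p = 0.0410).

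Insulator proteins, not all of them partners of mod(mdg4), had 1 rise and 1 fall among 13 measured genes of 16, with a median of −0.35 log2 units. Chro, a chromodomain protein of chromosome interbands, went from 8.87, 8.83 and 8.64 to 10.31, 10.35 and 10.08, a 2.77-fold rise of 1.47 log2 units (SE 0.11, limma adjusted p = 0.00117). The arrays of each group lay close together, and Chro was called in all 6 fits that left out an array. Dwg, the zinc finger protein of the scs insulator, fell by 0.85 (SE 0.17, limma adjusted p = 0.0336), from 8.06, 8.49 and 8.67 to 7.63, 7.41 and 7.63. Su(Hw) itself differed by 0.07 (SE 0.09, limma adjusted p = 0.626) and Cp190, a BTB insulator protein, by 0.11 (SE 0.15, limma adjusted p = 0.654); both were chosen after their values were seen. With the replicate block the insulator list had 1 rise and 4 falls, the 3 added falls being Elba3 at −0.90, Ibf1 at −0.58 and Ibf2 at −0.48 (limma adjusted p = 0.0378, 0.0486 and 0.0451).

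The Polycomb group, which keeps genes silent and with which lolal is known to act, had 1 fall and no rise among 15 measured genes of 23. Esc, a subunit of the complex that methylates histone H3, went from 8.63, 9.12 and 9.63 log2 units to 8.02, 7.58 and 7.92, a fall by 1.29 (SE 0.26, limma adjusted p = 0.0362). Its groups did not overlap. The replicate block added Sce as lower, at −0.51, and Jarid2 as higher, at 0.70 (limma adjusted p = 0.0352 and 0.0129). Of the trithorax group, to which Trl belongs, 18 of 25 listed genes were measured, of which none was called by limma after adjustment and 3 had an unadjusted p under 0.05. The smallest p-values were those of Nurf-38, a subunit of a nucleosome remodelling complex, at 0.55 (SE 0.13, limma adjusted p = 0.0526), and the remodelling factor kis, at 1.21 (SE 0.38, limma adjusted p = 0.112). Both passed with the replicate block (limma adjusted p = 0.0298 and 0.0112), as did E(bx) at 0.78 (0.0293). The medians of the Polycomb and trithorax lists were 0.20 and 0.22 log2 units.

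Of the 5 called genes in these lists, br (at its brightest probe set), CG6765, esc and dwg each lost the call in some fit that left out an array. Their limma adjusted p was up to 0.179, 0.125, 0.143 and 0.140. Br, CG6765 and esc each kept it in 2 of the 6 such fits and dwg in 1. Over the 4 lists the count lay between 1 and 13 when an array was left out.

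**Figure D5:**
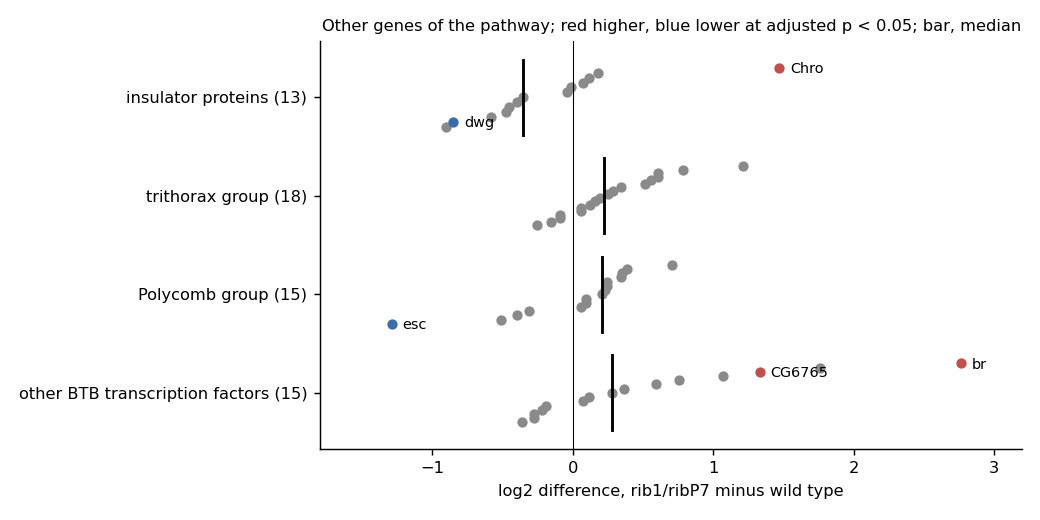
Difference in log2 expression, rib1/ribP7 minus wild type (x axis), of the measured genes in 4 lists of related genes (y axis, number measured in brackets), with the brightest probe set for each gene. Red points rose and blue points fell at a limma adjusted p under 0.05, and black bars are list medians; the 5 called genes are br, CG6765, Chro, dwg and esc.

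Markers of tissues that rib shapes are given beside these values. For comparison, 5.54% of all probe sets were called higher and 3.32% lower, and with the replicate block 14.6% were called either way. Of 9 measured tracheal genes on a list of 11, 1 rose and none fell (with the replicate block kni fell as well), with mean levels of 9.13, 8.73 and 7.66 log2 units in wild type and 8.91, 8.76 and 8.57 in the mutants. For the salivary gland, 10 of 11 listed genes were measured, 2 fell and none rose (with the replicate block sage fell and fkh rose as well), and the mean levels were 9.15, 8.87 and 8.22 against 8.20, 7.95 and 7.88. Muscle markers had 3 rises among 10 measured of 16, with mean levels of 8.67, 7.36 and 6.46 in wild type and 8.89, 8.95 and 8.76 in the mutants. Wild-type replicate 3 was the lowest wild-type array for the trachea, salivary gland, muscle and neuron lists, as it was for rib, lolal, Trl, bab1 and bab2, and its part in these differences was not tested beyond leaving it out.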

How the data were processed

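The authors deposited log2 expression values, 1 per probe set and array, normalized with RMA in Partek (version not given in the sources used here), per the submitters' processing notes. RMA gives all arrays the same distribution, which removes a shift shared by most transcripts, and it compresses differences near background. Total RNA (100 ng) was amplified from the 3' end and labelled with biotin. From these values, limma 3.58.1 in R 4.3.3 (lmFit, eBayes, two-sided) compared 3 mutant with 3 wild-type arrays over 18769 probe sets, after leaving out 183 control probe sets, with Benjamini-Hochberg adjustment over all of them and a threshold of 0.05. SEs and intervals are limma's moderated ones, and each probe set was tested on its own. Listed genes with several probe sets were read from the brightest.

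Members and lists were chosen with earlier results of these data known. All members were described. In each list of related genes up to 3 called genes each way were named, and where none was called the 2 of lowest p. In the lists of tissue and stage markers only genes whose call the replicate block added were named. Other named genes were chosen after their values were seen. The genes most like rib and lolal were those with the smallest root mean square distance. Gene names come from the platform annotation, and for all 43 members the gene identifier carried the same symbol in a RefSeq gene table (Release 6 plus ISO1 MT). The design text calls the collections independent. Deviations from the group means correlated across probe sets at r = 0.37, 0.57 and 0.39 for arrays with the same replicate number, and between −0.33 and −0.14 for other pairs across groups. Same-numbered arrays thus varied together, but deviations from a mean of 3 arrays sum to 0, so the negative values are in part built in. Whether the numbers pair the samples was not tested, and no label states what same-numbered arrays have in common. The fit with the replicate block is therefore given where it changes a call.

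On simulated data over 18769 probe sets with 200 changed, limma called 68.0% of those changed by 1 log2 unit and 97.0% of those changed by 2. It made 14 false calls. The simulated noise was independent between arrays and equally wide in both groups, with no deviant array and no deviation shared by replicate number. The real arrays differ in these ways, so the simulation checks the procedure and does not give its recovery here. Other settings tried were array weights, cyclic loess, the replicate block, a prior with trend and robust fitting, scaling on 18 hybridization control probe sets, leaving out the dimmest 40%, a plain test, the submitters' rule of 1.5-fold at an unadjusted p under 0.05, and each array left out.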

Additional observations from a re-analysis of the deposited data

How the results depend on the processing

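The 10 member calls became 18 with the replicate block, which changed no call of a named member or listed gene other than those given with it, 21 with array weights and 2 with a plain test without moderated variance, and lay between 1 and 15 when an array was left out. Over all probe sets the 1664 calls became 2745, 4371, 594 and, scaled on hybridization controls, 3202, with 603 to 3674 when an array was left out. The 5 calls in the gene lists became 14, 16, 1 and, scaled on hybridization controls, 12, with 1 to 13 when an array was left out. The median difference over the members was 0.15, with 0.04 under array weights and 0.09 to 0.23 when an array was left out. Scaling on hybridization controls adds 0.38 to every probe set and made it 0.53. Each fit that left out an array had fewer degrees of freedom, and the cause of these shifts was not tested. Members called numbered 7 with a trended and robust prior and with cyclic loess, 9 without the dimmest 40%, 15 scaled on hybridization controls and 11 by the submitters' rule.

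Uncalled members changed sign in some settings. With the 0.38 that scaling on hybridization controls adds to every probe set alike, mod(mdg4) moved to 0.31 at 1632973_at, 0.30 at 1630536_at, 0.24 at 1640554_at, 0.22 at 1631500_at, 0.20 at 1626650_at, 0.19 at 1636765_at, 0.14 at 1634258_at, 0.13 at 1637723_at, 0.10 at 1640268_at and 0.054 at 1639006_at, changes of sign that this common shift fixes. With array weights lola 1625768_s_at gave −0.067, mod(mdg4) 1634052_s_at −0.10 and bab2 −0.22. When an array was left out, lola 1623411_at ranged from −0.0077 to 0.41, lola 1625768_s_at from −0.13 to 0.17, mod(mdg4) 1634052_s_at from −0.032 to 0.11, mod(mdg4) 1630536_at from −0.20 to 0.053 and bab2 from −0.28, without wild-type replicate 3, to 0.30. No member that was called changed sign under these alternatives. Signal near background limits bab1, which lay below the array median in wild type.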
